A study of Mus musculus with 32 samples.

Results

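Mesenchymal cells of the mouse liver bud at embryonic day (E) 9.5 were compared with the average of intestine, lung and skin mesenchyme. They held more transcripts of heart muscle proteins (Myl7, Tnni1, Myl4), of Asb4 and of Gata4. The set comprised 76 of the 1916 cells in the deposited files. Its members were the cells that the study's own annotation names mesenchymal (Mes) and whose cell name gives liver as the organ: 29 from embryo 1, 25 from embryo 2 and 22 from embryo 3. That annotation names no mesenchymal cell of the liver at E10.5 or E11.5, so the set is confined to E9.5. The study profiled single cells of 8 organs of wild-type C57BL/6J embryos between E9.5 and E11.5. The 4 organs with annotated mesenchyme gave 194 such cells at E9.5. The comparison sets were 26 cells of the intestine (6, 11 and 9 in embryos 1, 2 and 3), 58 of the lung (30 and 28 in embryos 2 and 3) and 34 of the skin (19 and 15 in embryos 2 and 3). No embryo was treated or carried an engineered allele according to the labels. Embryos 1 and 3 were labelled male and embryo 2 female. Cells of embryo 3 came from pooled samples, lung with liver and skin with intestine and somite, and the labels name another sequencer model for this embryo than for embryos 1 and 2.

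The liver bud arises where foregut endoderm meets the septum transversum, a plate of mesoderm that lies next to the venous pole of the heart. Its mesenchyme surrounds the invading hepatoblasts, sends BMP and other signals to them, and later contributes to the stellate cells and the mesothelium of the liver. GATA factors, Wt1, Lhx2 and Hlx are transcription factors known from this mesenchyme, while Shox2 and Tbx18 are known from the sinus venosus, the venous inlet of the heart.

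Expression was measured in TPM, the name the authors gave to the unique molecular identifiers (UMIs) of a gene scaled to the UMI total of the cell, with no correction for gene length. Levels are given below as log2(TPM/10 + 1), averaged over the cells of an embryo. A cell was taken to express a gene from a value of 1 upwards. The liver cells held a median of 376612.5 UMIs, from 37220 to 2094228, and a median of 6829.5 detected genes. Median depth was 359836, 511641 and 293983 UMIs in liver embryos 1, 2 and 3, against medians from 194976 to 1593937 in the 7 sets of the other organs. Every cell was picked by hand, no cell name occurred in more than 1 file, and no doublet caller was run.

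The 4 markers given for these cells behaved differently in the comparison with the other mesenchyme. Asb4, a SOCS-box protein of ubiquitin ligase complexes, was expressed in 76 of 76 cells and Sparc, a matrix glycoprotein, also in 76. Vim, the intermediate filament of mesenchymal cells, was expressed in 75 cells, and Map1b, which binds microtubules, in 76. Vim stood at 5.15, 5.04 and 4.27 in liver embryos 1, 2 and 3 and between 3.74 and 5.8 elsewhere, so that the groups overlapped, with a difference of 0.12 ± 0.31 (SE; limma, adjusted p = 0.974). These cells thus held all 4 markers, and Vim was shared with the other mesenchyme. GEO's labels name the tissue liver only, so cells of the septum and of the liver bud proper could not be separated by label.

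For the main comparison, the 3 embryo means of liver were set against the average of intestine, lung and skin mesenchyme in limma, with 13171 genes tested. A gene was called at a Benjamini-Hochberg adjusted p under 0.05 with a difference of at least 1. Liver mesenchyme was higher for 46 genes (0.349% of those tested) and lower for 16 (0.121%). Of the 46, 40 had all 3 liver means above all 7 means of the other organs, which held for 351 genes in all (2.66%), and of the 16, 10 had all liver means below them (85 genes, 0.645%). The called genes higher in liver included 3 of 13 tested genes of the heart muscle list (Myl7, Tnni1, Myl4). They also included 4 of 16 cardiac regulators (Gata4, Gata5, Gata6, Hand2). Further members were 3 of 13 tested genes of the mesothelial list (Wt1, Upk3b, Bnc1) and 3 of 16 of the septum list (Wt1, Gata4, Alcam). With the embryo as a block in the fit, 101 genes were called in place of 62, of which 61 were among the 62. With edgeR on summed UMIs 137 genes were higher and 22 lower. The count depended on single means: it was 34 without liver embryo 1 or 2, 101 without liver embryo 3, 35 and 19 without lung embryo 2 or 3 and 25 without skin embryo 2. Leaving out embryo 1 with all its organs left 21 calls. Leaving out embryo 2 or embryo 3 in this way left limma with 0 calls, at 825 and 1101 genes with an unadjusted p under 0.05.

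**Figure D1:**
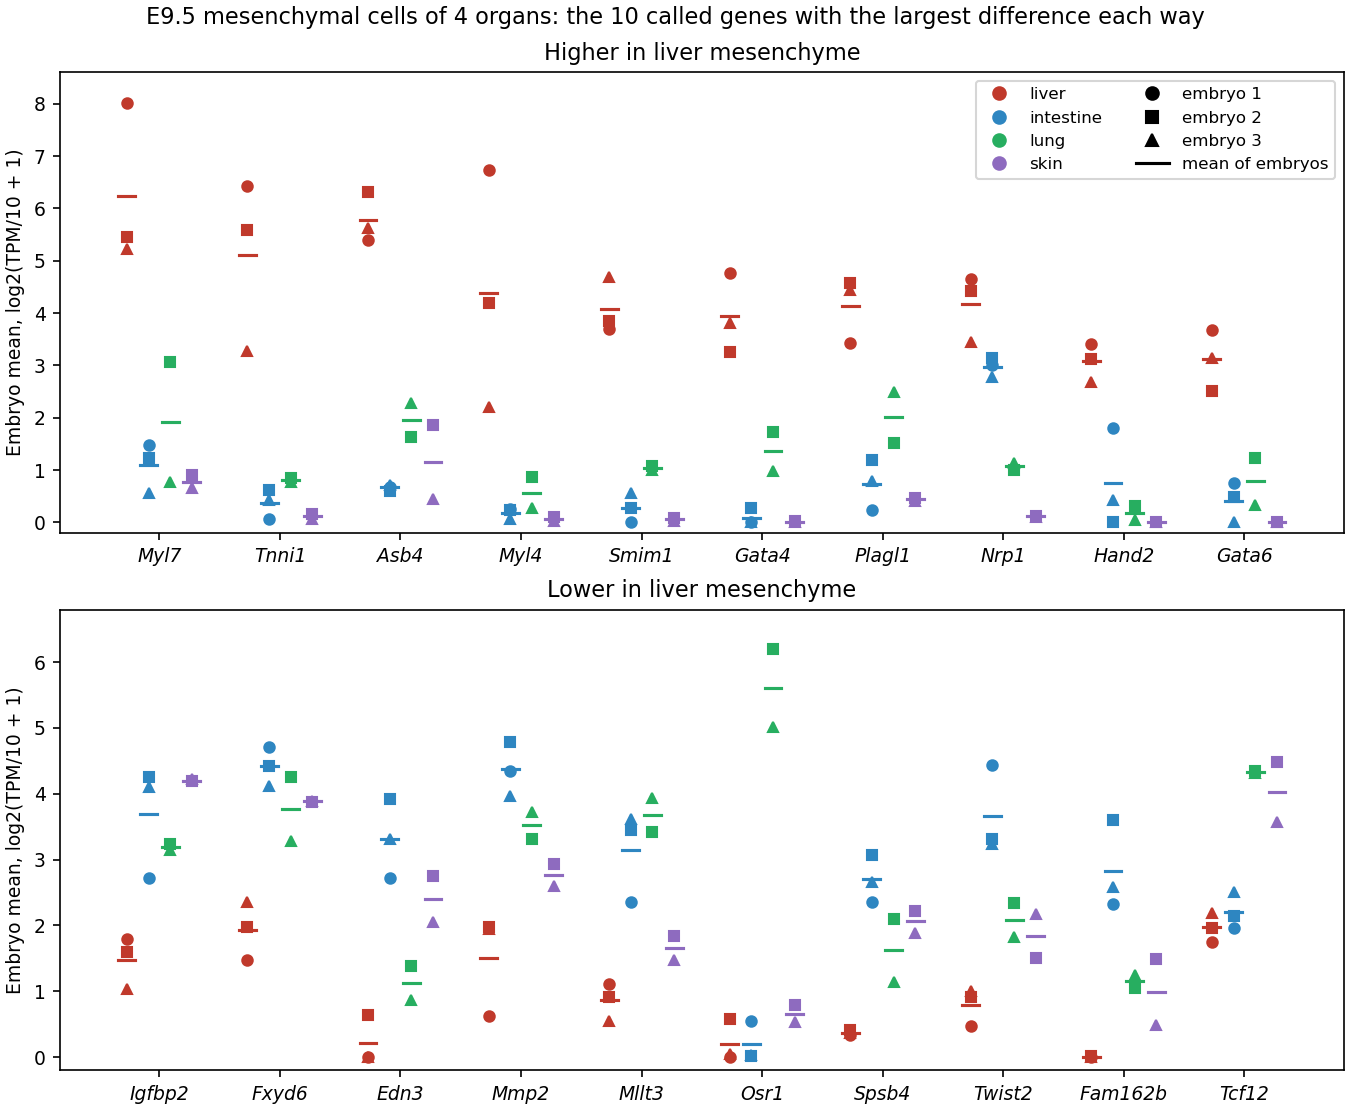
Embryo means on the log2(TPM/10 + 1) scale of the 10 called genes with the largest difference in each direction, by organ (colour) and embryo (marker shape), with a bar at the mean of the embryos. The liver points lie above all others for the 10 genes of the upper plot, and below all others for Igfbp2, Fxyd6, Edn3, Mmp2, Mllt3, Spsb4, Twist2 and Fam162b.

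Asb4 varied little between the livers. It stood at 5.4, 6.31 and 5.62 in liver embryos 1, 2 and 3, at 0.68, 0.61 and 0.72 in intestine, at 1.63 and 2.29 in lung and at 1.86 and 0.45 in skin. All 3 liver means were above every other mean, and the difference was 4.51 ± 0.34 (SE; adjusted p = 0.000107). The gene lies on chromosome 6 (GRCm38, chr6:5383386-5433022, plus strand). Asb4 was called against each of the 3 organs taken singly. Its call against the average was kept without any single liver, lung or skin mean. The same stability against the average was found for Gata4, Gata5, Gata6, Hand2, Nrp1, Alcam, Smim1, Plagl1, Wt1, Myl7 and Tnni1. Asb4 was not particular to mesenchyme within the liver, since the epithelial cells of the same livers stood at 4.19, 3.78 and 4.39, all of them expressing it.

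Related zinc finger factors of the GATA family, which act in heart, gut and liver development, were higher in liver mesenchyme. Gata4 stood at 4.76, 3.26 and 3.81 in liver, at 0, 0.28 and 0 in intestine, at 1.72 and 0.99 in lung and at 0.02 and 0 in skin. The liver means lay above all others, with a difference of 3.46 ± 0.33 (adjusted p = 0.000713), and 71 of the 76 cells expressed it. Gata6 reached 3.68, 2.52 and 3.14 in liver against 0 to 1.24 elsewhere (difference 2.72 ± 0.32, adjusted p = 0.00335). Gata5 stood at 2.08, 2.04 and 2.58 in liver and was also present in lung at 1.73 and 2.08, so that it overlapped there (difference 1.6 ± 0.23, adjusted p = 0.0126). Gata5 was called against intestine and skin but not against lung, where the difference was 0.33 ± 0.31. In liver epithelium Gata4 was low, at 0.38, 0.29 and 0.37, whereas Gata6 was present at 1.9, 1.58 and 2.07.

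Hand2, a bHLH factor of the heart and of lateral mesoderm, stood at 3.41, 3.13 and 2.69 in liver and from 0 to 1.81 in the other organs (difference 2.77 ± 0.36, adjusted p = 0.00531). Its relative Hand1 took the opposite direction against the intestine. Hand1 stood at 0.61, 2 and 0.68 in liver and at 4.64, 5.35 and 3.12 in intestine (difference -3.28 ± 0.53, adjusted p = 0.0136). The ranges of Hand1 in these organs did not overlap. Tbx20, a T-box factor of the heart, had an adjusted p of 0.0327 but a difference of 0.87, below the size required for a call.

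Among signalling and surface proteins, Nrp1, a co-receptor for semaphorins and VEGF, stood at 4.66, 4.43 and 3.44 in liver. It reached 3, 3.15 and 2.77 in intestine, 1.01 and 1.13 in lung and 0.13 and 0.1 in skin (difference 2.79 ± 0.29, adjusted p = 0.0016). The liver means were above all others, but the difference from intestine alone was not called. Alcam, an adhesion molecule of the immunoglobulin family, stood at 3.44, 3.95 and 3.04 in liver and below 0.31 in every intestine and lung mean. Skin held as much of it, at 3.87 and 2.93, so that its call (difference 2.24 ± 0.29, adjusted p = 0.00531) rested on intestine and lung. Tgfb2, a ligand of the TGF-beta family, stood at 5.05, 4.8 and 2.9 in liver against 0.57 to 2.91 elsewhere, an overlap of embryo 3 with skin (difference 2.63 ± 0.5, adjusted p = 0.0358). Its call was lost without liver embryo 1 or 2, either lung mean or skin embryo 2 (adjusted p from 0.0853 to 0.235).

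Smim1, a small membrane protein of red blood cells, and Plagl1, an imprinted zinc finger factor, were also among the 10 genes with the largest increase. Smim1 stood at 3.69, 3.84 and 4.68 in liver and from 0 to 1.07 elsewhere (difference 3.61 ± 0.28, adjusted p = 0.000107). Plagl1 stood at 3.42, 4.58 and 4.44 against 0.24 to 2.49 (difference 3.08 ± 0.34, adjusted p = 0.00206). Neither overlapped between liver and the other organs. Igf2, an imprinted growth factor, was high in all mesenchyme and was not called (difference 2.06 ± 0.46, adjusted p = 0.0751).

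Sparc was called (6.47, 6.4 and 6.09 in liver, 3.88 to 5.68 elsewhere, difference 1.51 ± 0.28, adjusted p = 0.0324), whereas Map1b was not. The call of Sparc was lost without liver embryo 1 or 2 or any lung or skin mean (adjusted p from 0.0704 to 0.165). Map1b stood at 7.31, 7.02 and 5.04 in liver and from 2.04 to 4.77 elsewhere. Although the groups of Map1b did not overlap, its difference of 2.72 ± 0.6 had an adjusted p of 0.0741, and of 0.00477 with the embryo as a block. Lhx2 and Igf2 were likewise called only with the block, at adjusted p of 0.0158 and 0.0179, as were Kitl, Afp, Ttr and Trf among the listed genes.

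Among the genes lower in liver mesenchyme, Igfbp2, a binding protein of insulin-like growth factors, stood at 1.79, 1.6 and 1.04 in liver and from 2.72 to 4.26 elsewhere (difference -2.22 ± 0.34, adjusted p = 0.0134). Edn3, an endothelin, stood at 0, 0.64 and 0 in liver and from 0.87 to 3.92 elsewhere (difference -2.07 ± 0.32, adjusted p = 0.0134). Mmp2, a matrix metalloproteinase, stood at 0.62, 1.97 and 1.95 against 2.6 to 4.79 (difference -2.04 ± 0.34, adjusted p = 0.0184). None of the 3 overlapped. Leaving out liver embryo 2, lung embryo 3 or skin embryo 2 took the call from Igfbp2 (adjusted p up to 0.0594). Leaving out liver embryo 1, either lung mean or skin embryo 2 took it from Edn3 (up to 0.0812) and Mmp2 (up to 0.0858), which edgeR did not call either. Twist2, a bHLH factor of mesenchyme, was also low in every liver mean, at 0.47, 0.91 and 1 against 1.51 to 4.44 (difference -1.74 ± 0.32, adjusted p = 0.0333), and it lost its call without any single liver, lung or skin mean (0.0565 to 0.179).

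Fxyd6, a regulator of the sodium pump, stood at 1.48, 1.97 and 2.35 in liver and from 3.28 to 4.71 elsewhere (difference -2.09 ± 0.29, adjusted p = 0.00941). Mllt3, a transcription elongation factor, stood at 1.11, 0.91 and 0.55 against 1.47 to 3.94 (difference -1.97 ± 0.32, adjusted p = 0.0151), and neither gene overlapped. Spsb4, a SOCS-box protein, and Fam162b were nearly missing from liver mesenchyme, at most 0.41 and 0.01, and differed by -1.75 ± 0.28 (adjusted p = 0.0151) and -1.65 ± 0.32 (adjusted p = 0.0415). Tcf12, a bHLH factor, was the tenth, at -1.55 ± 0.27 (adjusted p = 0.0258), and overlapped with intestine. Of these 5 genes Fxyd6 kept its call without any single organ mean. The call was lost without liver embryo 1 or 2 or skin embryo 2 for Spsb4 (0.0591 to 0.0827), Mllt3 (0.0563 to 0.0821) and Tcf12 (0.0591 to 0.131). Lung embryo 3 also decided it for Mllt3 (0.073), and either lung mean for Tcf12 (0.0729 and 0.0866). Fam162b was the least stable of the 20 genes plotted, called in 11 of 24 settings (the one reported included) and lost without any single liver or lung mean, intestine embryo 3 or skin embryo 2 (0.0507 to 0.189).

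A pair of called genes was high in a single organ. Osr1, a zinc finger factor, was high only in lung, at 6.2 and 5.02, and stood at 0, 0.57 and 0.04 in liver (difference -1.95 ± 0.3, adjusted p = 0.0134). Prrx1, a homeobox factor of limb and skin mesenchyme, stood at 3.66 and 2.99 in skin and at 0.07, 0.44 and 0 in liver (difference -1.15 ± 0.23, adjusted p = 0.042). Both overlapped with the organs in which they were low, and the edgeR test on summed UMIs called neither (adjusted p of 0.162 for Osr1 and 0.824 for Prrx1). Osr1 also lost its call without liver embryo 1 or skin embryo 2 (up to 0.0805), and Prrx1 without any liver or lung mean (0.123 to 0.207).

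Organ by organ, 43 genes were higher and 40 lower in liver than in intestine (0.326% and 0.304% of those tested, 0.63% together). The counts were 16 and 8 against lung (0.121% and 0.0607%, 0.182% together) and 38 and 63 against skin (0.289% and 0.478%, 0.767% together). With edgeR they were 68 and 36 against intestine, 8 and 7 against lung and 51 and 34 against skin. The embryo as a block raised the calls against intestine from 83 to 183 and against lung from 24 to 43. Of the 46 genes higher against the average, 8 were also called against each organ singly, among them Asb4, Tnni1, Smim1, Gata4, Hand2 and Wt1. None of the 16 lower genes was. The homeobox factor Nkx2-3 of gut mesenchyme was listed at 0 in every liver cell and stood at 5.08, 3.3 and 3.03 in intestine (difference -3.8 ± 0.45, adjusted p = 0.00242). Against skin, Crabp1, a retinoic acid binding protein, stood at 5.38 and 6.56 in skin and at 0.21, 2.58 and 2.16 in liver (difference -4.32 ± 0.76, adjusted p = 0.0177), and neither gene overlapped between the organs named. Msx2, a homeobox factor of skin appendages, differed from skin by -3.57 ± 0.51, and Cxcl13, a chemokine, from lung by -2.98 ± 0.43, both called. Anxa2, a membrane-binding annexin, was higher in liver than in intestine by 4.09 ± 0.41 and than in lung by 3.2 ± 0.45, whereas the skin means of 5.14 and 4.07 overlapped with those of liver (3.6, 4.9 and 4.56; difference -0.25 ± 0.45, not called).

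Myl7 and Tnni1 had the largest differences of all called genes. Myl7, the atrial regulatory myosin light chain, stood at 8.02, 5.45 and 5.23 in liver embryos 1, 2 and 3. It stood at 1.48, 1.24 and 0.57 in intestine, at 3.07 and 0.77 in lung and at 0.9 and 0.65 in skin. The liver means lay above all others (difference 4.97 ± 0.6, adjusted p = 0.00378), and 74 of 76 cells expressed Myl7. It was called against intestine and skin, but against lung the adjusted p was 0.0517. Expression of Myl7 was not confined to mesenchyme within the liver. Every epithelial cell of liver embryos 1 and 2 expressed it as well (lowest 1.7 and 1.72). The epithelial medians were 2.27, 2.41 and 0.23 in embryos 1, 2 and 3, against 8.44, 5.23 and 5.62 in the mesenchyme. Tnni1, the slow skeletal troponin I that the embryonic heart also uses, stood at 6.43, 5.58 and 3.28 in liver and from 0.06 to 0.84 elsewhere (difference 4.66 ± 0.51, adjusted p = 0.00206). Myl4, the atrial essential light chain, stood at 6.73, 4.2 and 2.2 against 0.02 to 0.86 (difference 4.11 ± 0.68, adjusted p = 0.0184). Neither overlapped. Against lung alone, Tnni1 was the only called gene of the heart muscle list, so Myl4 was not called there. Against the average, Myl4 lost its call without liver embryo 2 (adjusted p = 0.0997) or when any lung or skin mean was left out (0.0666 to 0.0979).

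The remaining heart muscle genes were not called. Of the 16 genes of the list 13 were tested, 3 were called, all higher in liver, and 12 had a positive difference (median 0.83). A gene was tested if 3 or more of the mesenchymal cells expressed it, and liver cells alone could meet this. The sign count and the median may therefore lean towards liver and are a description only. Over all genes tested 0.349% were called higher and 7430 of 13171 were positive, with a median of 0.03. Tnnt2, the cardiac troponin T, stood at 5.57, 3.66 and 0.4 in liver and from 0.05 to 1.81 elsewhere, and Actc1, cardiac actin, at 5.11, 2.76 and 0 against 0.04 to 1.43. Embryo 3 overlapped with the other organs in both, and the differences of 2.69 ± 0.82 and 1.8 ± 0.78 had adjusted p of 0.229 and 0.479. Without liver embryo 3, Tnnt2, Actc1, Ttn, Tnni3, Tnnc1 and Myh6 were called as well, with adjusted p of 0.00889 for Tnnt2 and 0.0289 for Actc1.

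The sequence before the start of Myl7 and of Tnnt2 is shown because Myl7 had the largest difference between organs, present in all 3 livers, whereas Tnnt2 was near 0 in embryo 3. The windows run from 250 bases before to 50 after the RefSeq start in GRCm38.p6. Capitals mark the letters GATAA, bound by the GATA factors. They also mark CATTCC, the MCAT element of muscle promoters. Both were searched on either strand.

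Myl7, chr11:5898733-5899032, minus strand: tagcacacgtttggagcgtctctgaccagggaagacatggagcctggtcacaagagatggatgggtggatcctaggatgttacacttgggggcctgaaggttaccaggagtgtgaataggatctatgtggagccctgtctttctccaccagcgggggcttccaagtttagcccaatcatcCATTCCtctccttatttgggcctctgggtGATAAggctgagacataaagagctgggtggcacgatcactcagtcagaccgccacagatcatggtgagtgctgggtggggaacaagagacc
Tnnt2, chr1:135836084-135836383, plus strand: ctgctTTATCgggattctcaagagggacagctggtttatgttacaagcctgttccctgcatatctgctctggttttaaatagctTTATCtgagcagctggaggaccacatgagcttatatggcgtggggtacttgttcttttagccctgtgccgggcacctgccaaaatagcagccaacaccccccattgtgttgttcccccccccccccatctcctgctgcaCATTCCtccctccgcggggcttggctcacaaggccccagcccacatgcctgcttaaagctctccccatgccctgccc

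The Myl7 window held GATAA at 1 position and CATTCC at 1. The Tnnt2 window shown held GATAA at 2 positions, both as TTATC, and CATTCC at 1, and no motifs overlapped. A search on both strands found neither AGGTGT, a T-box motif, nor the MEF2 motif (CTA and TAG with 4 bases between them), nor TATAAA in these windows. A second RefSeq start of Tnnt2 (window chr1:135836739-135837038, plus strand, not printed) held none of the 5 motifs. The windows of the other called heart muscle genes, Tnni1 and Myl4, also not printed, held neither GATAA nor CATTCC. Both windows of Tnni1 held AGGTGT at 1 position and no other motif, and that of Myl4 held none. For Asb4, the window chr6:5390160-5390459 held GATAA at 1 position and the window chr6:5383136-5383435 held no motif. Over all 32851 promoter windows of the same length, 25.4% held GATAA, 14.7% CATTCC, 13.7% AGGTGT, 3.69% the MEF2 motif and 13.6% TATAAA. These are matches of letters and were not tested as binding sites.

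**Figure D2:**
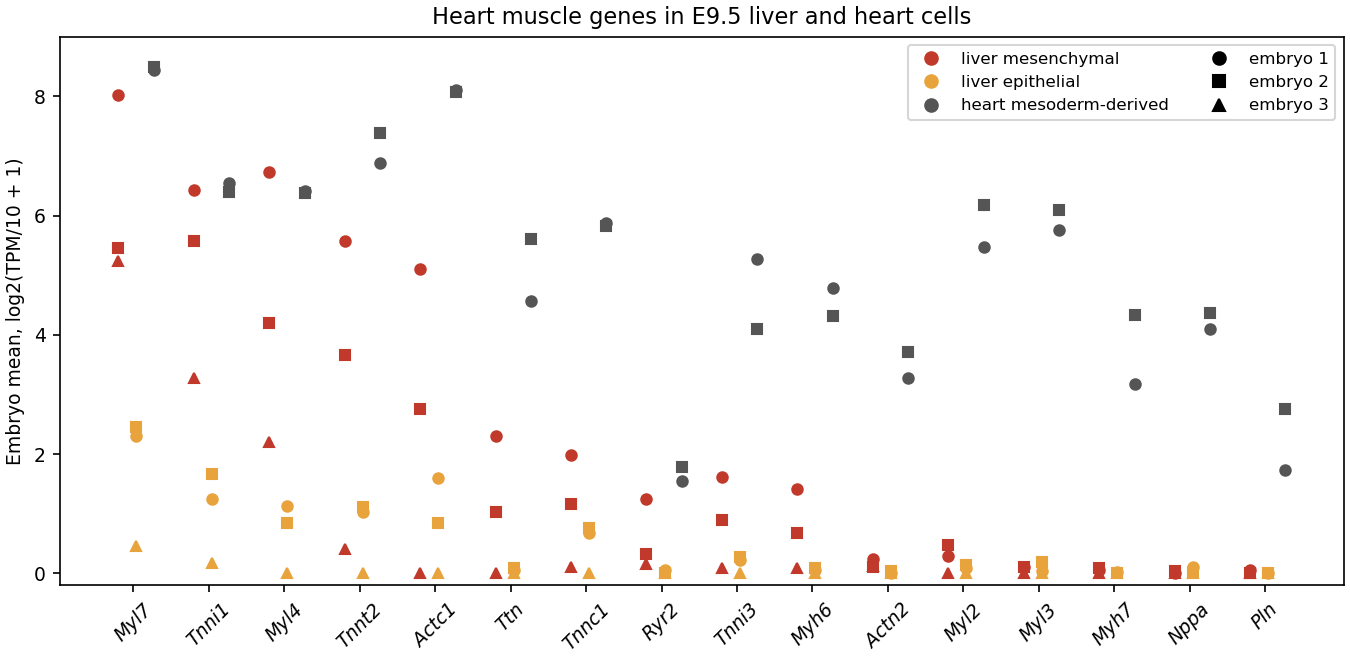
Embryo means on the log2(TPM/10 + 1) scale of the 16 heart muscle genes in mesenchymal and epithelial cells of the liver and in mesoderm-derived cells of the heart. Myl7 of liver embryo 1 (8.02) lies near the heart values of 8.45 and 8.49, whereas Myl3, Myh7 and Nppa lie near 0 in liver.

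The mesoderm-derived cells of the heart, sampled in embryos 1 and 2 of the same stage, gave a reference for these levels. The paper sorts its heart cells into cardiomyocyte, endothelial and epicardial clusters, so this reference is a mixture and not heart muscle alone. Shares of the cardiomyocyte value were not computed. In mean TPM, liver mesenchyme reached 69.3% of the heart value for Tnni1 in embryo 1 and 52.4% in embryo 2. For Myl4 the shares were 53.4% and 25.1%, and for Myl7 43.0% and 23.7%. Tnnt2 was lower, at 23.7% and 15.6%, and Actc1 at 16.9% and 6.34%. Ryr2, the cardiac ryanodine receptor, was at 56.3% and 6.9%. Ttn, which encodes titin, was at 9.42% and 1.46%, Tnnc1, the slow and cardiac troponin C, at 8.39% and 5.08%, Myh6, alpha myosin heavy chain, at 6.5% and 7.06%, and Tnni3, the cardiac troponin I, at 5.73% and 8.89%.

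Of the list, 5 genes were under 1% of the heart value in both embryos (Myl2, Myl3, Myh7, Nppa and Pln). Myl2, the ventricular regulatory light chain, reached 0.251% and 0.741% of the heart value, Myl3, the ventricular essential light chain, 0.0487% and 0.0399%, and Myh7, beta myosin heavy chain, 0.147% and 0.121%. Nppa, which encodes atrial natriuretic peptide, had no TPM in liver embryo 1 and 0.0189% of the heart value in embryo 2. Nkx2-5, the homeobox factor of cardiomyocytes, stood at 0.09, 0.02 and 0 in liver and at 3.26 and 3.63 in heart, and 1 of the 76 liver cells expressed it. The shares of the heart value thus ran from 0 to 69.3% in embryo 1, depending on the gene.

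The summed TPM of the 16 genes was 9210, 4100 and 920 in liver embryos 1, 2 and 3. It was 38500 and 32400 in heart, 118, 126 and 5.89 in liver epithelium of embryos 1, 2 and 3, 41.5 to 96.1 in intestine, 362 and 73.2 in lung and 27.4 and 40.9 in skin mesenchyme. Each liver value was above each value of the other mesenchyme and of the liver epithelium. The mesoderm-derived cells of the somite stood at 125, 23 and 1400 in embryos 1, 2 and 3, so that those of embryo 3 were above liver embryo 3, and 2 of 31 of them expressed 8 genes.

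Within the livers the heart muscle genes were unequally spread over cells. A cell of liver embryo 1 expressed a median of 7 of the 16 genes (fewest 4, most 12), of embryo 2 a median of 5 (3 to 11) and of embryo 3 a median of 3 (0 to 5). At least 8 of the genes were expressed in 13 of 29 cells of embryo 1 (44.8%, Wilson 95% interval 28.4 to 62.5) and in 3 of 25 of embryo 2 (12%, 4.17 to 30.0). They were expressed in 0 of 22 cells of embryo 3, which allows a share of up to 13.6%. In all, 16 of 76 liver cells reached 8 genes (21.1%, 13.4 to 31.5), against 0 of the cells of intestine, lung and skin mesenchyme and of the liver epithelium, and 45 of 45 heart cells in each of embryos 1 and 2. Below this limit the other sets were not free of these genes. A cell of the liver epithelium expressed a median of 4 in embryos 1 and 2 (most 5 and 6) and of 0 in embryo 3 (most 1). Lung mesenchyme of embryo 2 had a median of 3 (most 7).

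The limit of 8 genes divides a range and is no boundary between cell types, as 6 cells expressed 7 genes and 4 cells expressed 8. With a limit of 6 genes the count was 30 cells and with 10 genes 8. Counting a single UMI as expression raised it to 39 cells (20 of 29 in embryo 1, 19 of 25 in embryo 2 and 0 of 22 in embryo 3), but then cells of the other sets passed as well. In embryo 2 these were 8 of 11 cells of intestine, 18 of 30 of lung and 9 of 19 of skin mesenchyme, and of the liver epithelium 5 of 9 cells in embryo 1 and 11 of 16 in embryo 2. At the cells' own depth, the contrast with the other mesenchyme of embryo 2 therefore held at a log2 value of at least 1 and not at a single UMI. Median depth in embryo 2 was 1593937 UMIs in intestine, 737157.5 in lung and 943833 in skin, against 511641 in liver. After each cell was thinned to 100000 UMIs, a log2 value of 1 equals 1 UMI. Then 21 of 73 liver cells passed, against 2 of 30 of lung embryo 2 and 0 in each other set of mesenchyme. Depth was alike in both ranges of cells, with medians of 372257 UMIs above and 350863.5 below the limit in embryo 1, and 493385 and 523419.5 in embryo 2. The intervals cover counting error only.

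**Figure D3:**
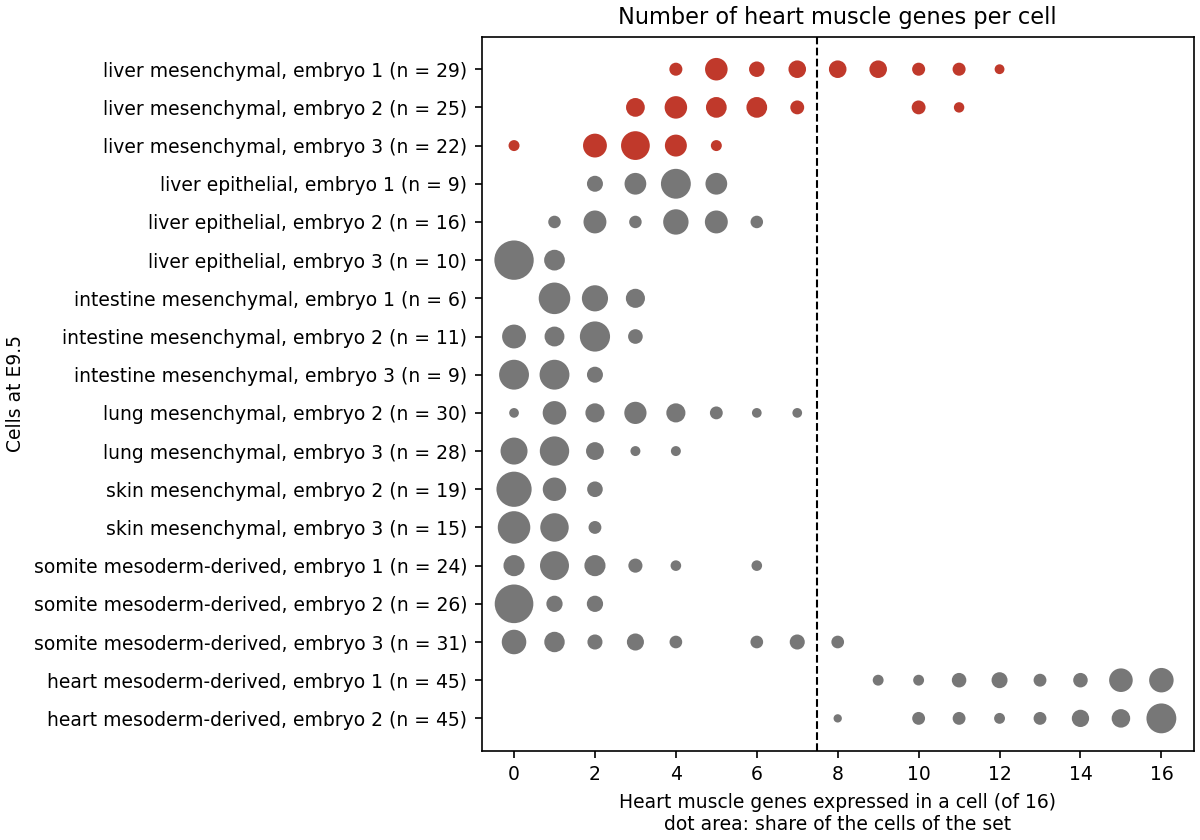
Number of the 16 heart muscle genes expressed in a cell (horizontal axis) for each set of E9.5 cells (rows), with dot area as the share of the set and a dashed line at the limit of 8 genes. Liver mesenchyme of embryos 1 and 2 reaches 12 and 11 genes and that of embryo 3 reaches 5, while the heart cells have a median of 15.

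The cells above and below the limit were compared as a description only, since the limit used the same cells. In embryo 1, Actc1 had a median of 8.2 above and 2.19 below, and Ttn, the giant spring protein of the sarcomere, 4.44 and 0. Hcn4, the pacemaker channel, had medians of 3.04 and 0, and Shox2 5.8 and 4.4. Gata4 and Asb4 were close, with medians of 4.7 and 4.92 and of 5.59 and 5.39. Wt1 took the other direction (0.81 above and 3.62 below), as did the mesothelial gene Upk3b (0.58 and 4.47). Bmp4, a ligand that the septum sends to the hepatic endoderm, was higher above the limit (5.24 and 1.88).

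The 3 cells above the limit in embryo 2 had a median of 8.2 for Actc1, against 1.47 in the other 22. Shox2 (5.13 and 0.2), Tbx18 (4.23 and 0.03) and Wnt2 (5.58 and 1.12) differed in the same direction between those cells. In embryo 1, by contrast, Tbx18 was present in all cells, with medians of 4.78 and 4.82. Without the 16 cells the difference was 4.52 for Myl7 and 4.44 for Tnni1, and 61 genes were called, 56 of them among the 62. Without the 30 cells with 6 or more genes, and 2 such cells of the lung, the difference of Myl7 was 4.27. Myl7 and Tnni1 belong to the count by which cells were removed. These differences therefore only describe the remaining cells and are no test of the 2 genes.

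Across the 76 cells, centred by embryo, the genes whose level followed the mean of the heart muscle genes most closely were Csrp3, a muscle LIM protein (Pearson r = 0.83), Ppargc1a, a regulator of mitochondrial genes (0.82), Sh3bgr (0.76), Shox2 (0.75) and Chchd10, a mitochondrial protein (0.73). The most negative were Bzw1 (-0.6) and Rrbp1 (-0.58). Asb4 (0.16) and Gata4 (-0.09) followed it little, and Wt1 was slightly negative (-0.26). These are descriptions across cells that share 3 embryos and their libraries.

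Pairs of genes in the same cell were counted. Myl7 and Tnni1 were expressed together in 72 of 76 cells, an overlap bound to be high because nearly every cell expressed each. Tnnt2 was expressed in 52 cells and Shox2 in 35, and each Shox2 cell also expressed Tnnt2. All 29 cells of embryo 1 expressed Tnnt2, which fixed this there, and embryo 3 had no Shox2 cell. Only embryo 2 bears on it, with 11 cells expressing both, 8 Tnnt2 alone and 6 neither. Shox2 and Tbx18 shared 33 cells, 24 of them in embryo 1, where all cells expressed Tbx18. Tnnt2 and Nkx2-5 were found together in 1 cell. In heart mesoderm Shox2 stood at 0.05 and 0.29, below liver embryos 1 and 2, and 2.22% and 8.89% of the heart cells expressed it.

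**Figure D4:**
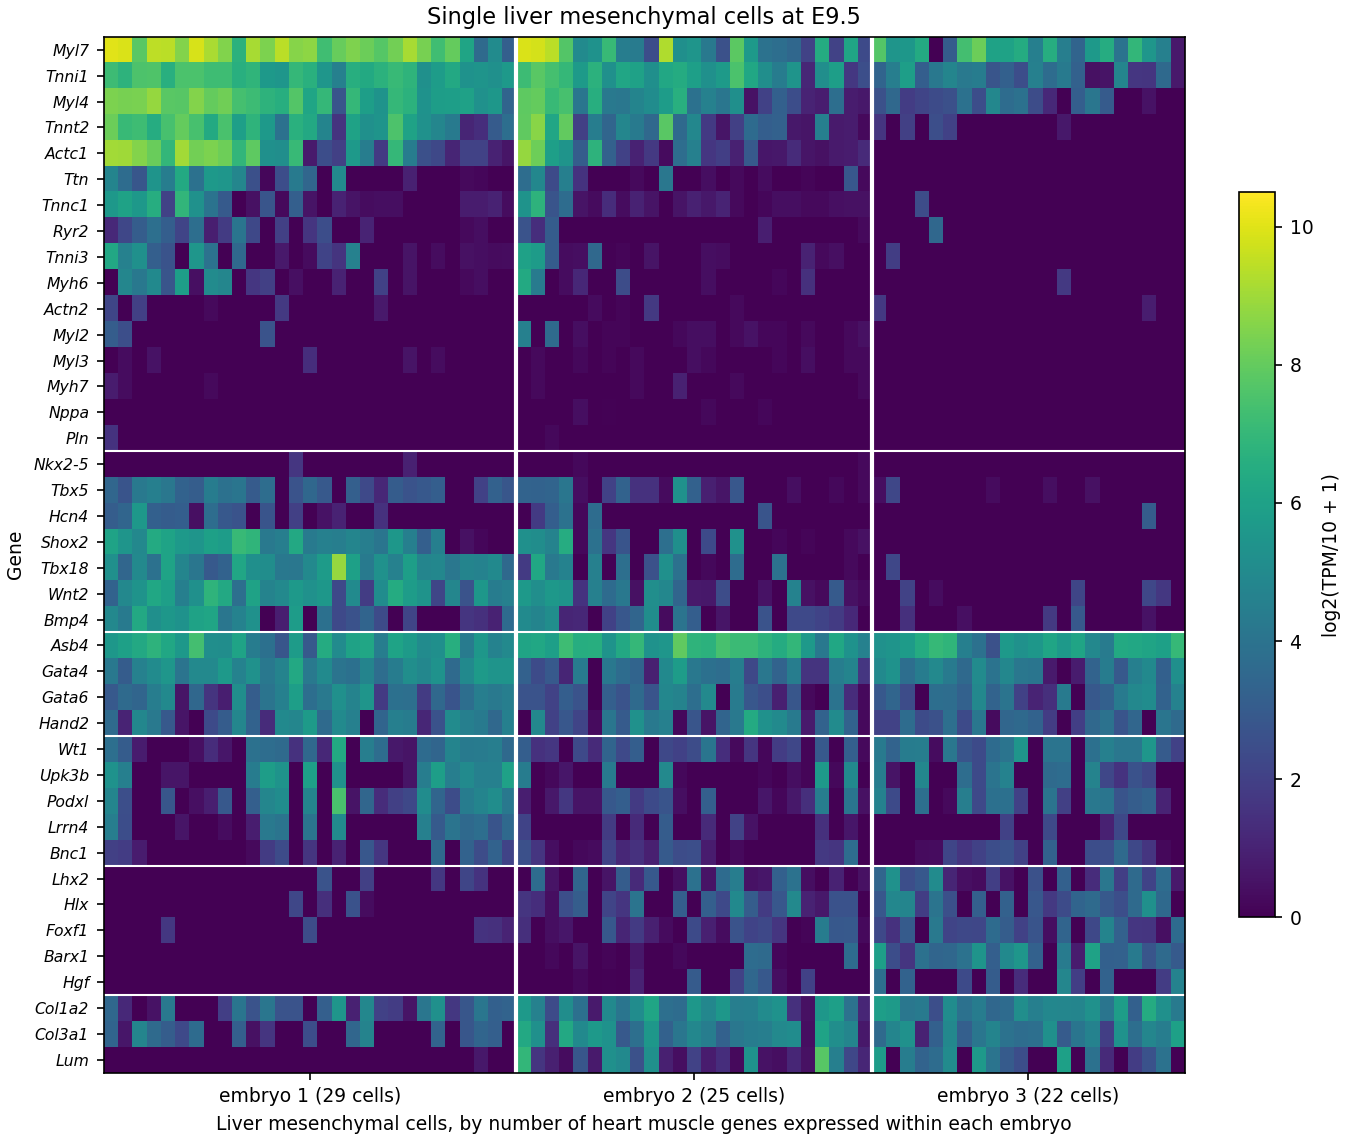
log2(TPM/10 + 1) of selected genes (rows) in each of the 76 liver mesenchymal cells (columns), ordered within embryo by the number of heart muscle genes expressed. Asb4 is at least 2.61 in all 76 cells, Actc1 is highest in the cells at the left of embryos 1 and 2, and Barx1 is found mainly in embryo 3 (90.9% of its cells).

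The 3 livers differed from each other in many of these genes. Of 186 listed genes tested, 40 had a range of at least 2 over the liver embryos and 15 of at least 3, while over all genes tested 147 (1.12%) and 31 (0.235%) did. The highest mean was in embryo 1 and the lowest in embryo 3 for 17 of the 40, and the reverse held for 13. Embryos 1 and 3 were apart by at least 2 for 119 of the tested genes, embryos 1 and 2 for 40, and embryos 2 and 3 for 39. The same counts in the intestine were 159, 128 and 166, and between embryos 2 and 3 they were 51 in lung and 59 in skin. Each embryo gave 1 set of liver cells, so differences between livers had no replicate and no test. Embryo, sequencer and pooling of embryo 3 with lung cannot be told apart.

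Genes highest in embryo 1 included cardiac and sinus venosus regulators. Shox2 stood at 4.35, 1.92 and 0 in embryos 1, 2 and 3, Tbx18 at 4.87, 1.81 and 0.1, and Tbx5, a T-box factor of heart and lung, at 2.77, 1.48 and 0.17. Shox2 and Tbx18 of embryos 1 and 2 were above all other mesenchyme, whereas Tbx5 was higher in lung, at 3.27 and 3.21. Wnt2, a ligand of lung and heart mesoderm, stood at 4.87, 2.53 and 0.39, and Mab21l2, known from liver and septum development, at 3.6, 2.93 and 0.14. Bmp4 (3.08, 2.05 and 0.32) and the smooth muscle actin Acta2 (5.45, 4.6 and 0.56) were also highest in embryo 1 and lowest in embryo 3. None of these genes was called against the other organs.

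Genes highest in embryo 3 included regulators of hepatic and gut mesenchyme. Lhx2, which restrains stellate cell activation, stood at 0.35, 1.55 and 2.13, and Hlx, needed for liver outgrowth, at 0.23, 2.01 and 2.7. Foxf1, a hedgehog target of gut mesenchyme, stood at 0.28, 1.3 and 2.3, and Hgf, the hepatocyte growth factor, at 0, 0.61 and 1.39. Hlx and Foxf1 were higher in intestine than in these cells (2.27 to 4.11 and 3.5 to 4.04). Lhx2 was above all other mesenchyme in each liver, but its difference of 1.27 ± 0.29 was not called (adjusted p = 0.0795). It was called without embryo 1 (1.77, adjusted p = 0.00502) and without the cells of 8 or more heart muscle genes (1.37, adjusted p = 0.0282).

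Barx1, a homeobox factor of stomach mesenchyme, showed the sharpest contrast of this kind. It stood at 0, 0.52 and 3.57 in embryos 1, 2 and 3, and 90.9% of the cells of embryo 3 expressed it. It was at or below 0.89 in all other mesenchyme, so only the liver of embryo 3 stood apart. Matrix genes were also lower in embryo 1, with Col1a2 at 2.46, 4.17 and 4.63 and Lum, a small proteoglycan, at 0.02, 2.44 and 2.6.

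**Figure D5:**
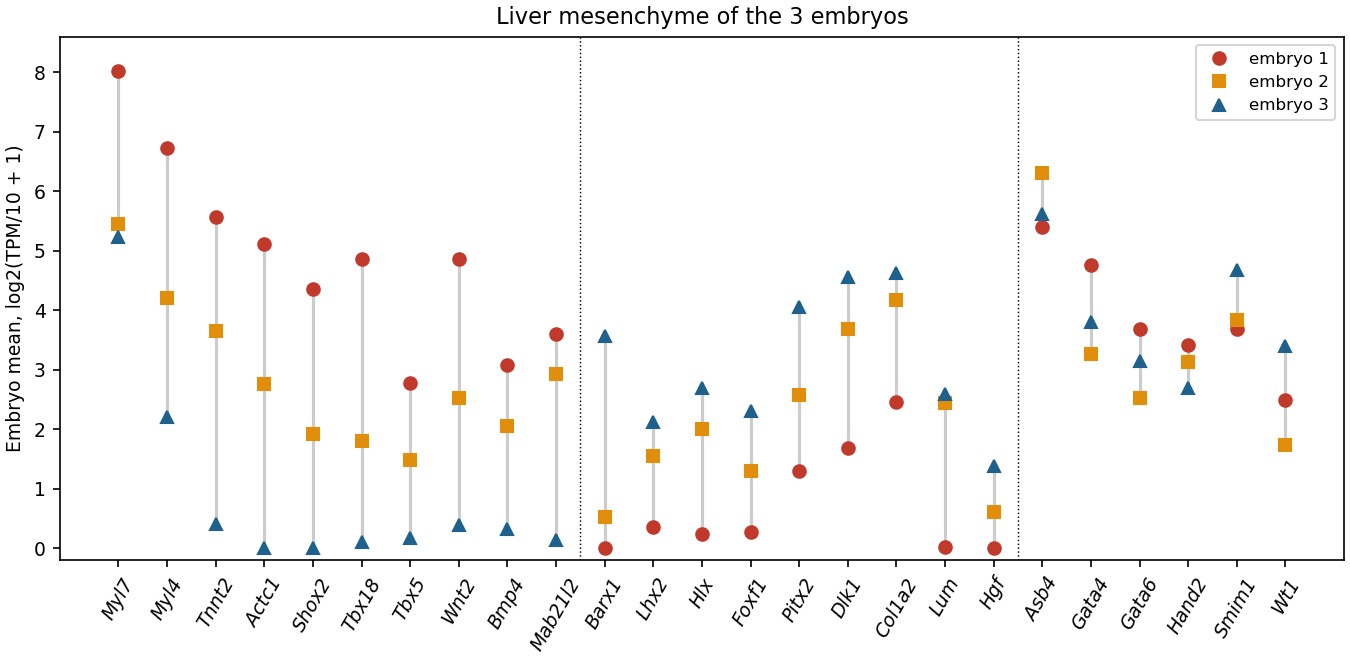
Embryo means on the log2(TPM/10 + 1) scale in the 3 livers, for genes highest in embryo 1 (left), genes highest in embryo 3 (middle) and genes called against the other organs (right). Tnnt2, Actc1, Shox2 and Tbx18 are at most 0.4 in embryo 3, Barx1 and Hgf are 0 in embryo 1, and Asb4 stays between 5.4 and 6.31.

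Of the septum and hepatic mesenchyme list, 3 of 16 genes were called higher, none lower, and 13 had a positive difference (median 0.53). Over all genes tested 0.349% were called higher and 7430 of 13171 were positive, with a median of 0.03. Foxf1, also a member, was called lower against intestine alone. Wt1, a zinc finger factor of septum and mesothelium, stood at 2.49, 1.74 and 3.4 in liver and from 0 to 0.64 elsewhere (difference 2.39 ± 0.32, adjusted p = 0.00634). The groups did not overlap, and 56 of 76 cells expressed it. Tcf21, a bHLH factor of visceral mesoderm, stood at 2.51, 2.49 and 3.71 in liver but as high in intestine, and was not called (difference 1.36 ± 0.47, adjusted p = 0.312).

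The mesothelial and epicardial list had 13 of 14 genes tested and 3 called, all higher (median difference 0.91), beside the same 0.349% and 0.03 over all genes. Upk3b, an uroplakin of mesothelial cells, stood at 2.54, 1.05 and 2.06 in liver and at 0.56, 1.18 and 0 in intestine, so that embryo 2 overlapped (difference 1.67 ± 0.32, adjusted p = 0.04). Upk3b lost its call without liver embryo 1 or 3 or any lung or skin mean (0.0966 to 0.175), and after thinning (0.0729). Bnc1, a zinc finger factor, stood at 1.07, 1.08 and 1.35 against 0 to 0.68 and did not overlap (difference 1.04 ± 0.16, adjusted p = 0.0134). Its call was lost without either lung mean or skin embryo 2 (0.0591 to 0.0701) and, with a difference under 1, without liver embryo 3. Msln, the classical mesothelial marker, was not tested, being expressed in 1 of the 194 mesenchymal cells, a cell of the liver.

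Mesothelial genes were present in some liver cells and missing in others. Upk3b was expressed in 32 cells, all of which expressed Wt1, while 24 further cells expressed Wt1 without Upk3b. Among cells centred by embryo, Podxl (r = 0.79), Lrrn4 (0.76) and Ezr (0.74), genes of the apical surface of mesothelial or polarised cells, followed Upk3b, a gene chosen after its values were seen. Asb4 ran against them, with r of -0.56 to Podxl and -0.54 to Upk3b. Tnnt2 was expressed in 19 of the 32 Upk3b cells, namely in 14 of 14 in embryo 1, where all 29 cells expressed Tnnt2, in 4 of 5 in embryo 2 and in 1 of 13 in embryo 3.

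Other lists held few calls against the average. Over all genes tested 0.349% were called higher and 0.121% lower, with a median difference of 0.03. Among matrix and adhesion genes only Sparc was called of 18 (median difference 0.01), and among niche ligands only Tgfb2 of 11 tested (0.37). Of 7 EMT factors, Twist2 and Prrx1 were called lower, and of 18 organ regulators Osr1 and Prrx1, with Prrx1 on both lists (medians -0.4 and -0.24). Against the average, no gene of the retinoic acid list (10 tested, median -0.29) or of the BMP, FGF, WNT and HGF list (19 tested, 0.04) was called. Against skin alone, 1 of each was called lower, Crabp1 and Axin2, a target of WNT signalling (difference -1.39 ± 0.29, adjusted p = 0.0469). The 8 tested genes of the hedgehog response list had a negative difference without exception, with a median of -0.52, and none was called against the average. Over all genes tested, 7430 of 13171 differences were positive. Against intestine alone 2 genes of the list were called lower, the forkhead factors Foxf1 (difference -2.44 ± 0.44, adjusted p = 0.0266) and Foxf2 (-2.4 ± 0.38, adjusted p = 0.0126). Hhip, the hedgehog decoy receptor, stood at 0.06, 0.05 and 0.03 in liver and from 0.31 to 3.07 elsewhere, an order without overlap (difference -1.5 ± 0.45, adjusted p = 0.225). Ptch1 and Gli1 also lay below all other means, which held for 0.645% of all genes tested.

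Markers of other liver cells were measured beside these results. The summed TPM of 16 hepatoblast genes was 68.7, 778 and 505 in the mesenchyme of embryos 1, 2 and 3, against 13600, 24600 and 29800 in the epithelial cells of the same livers. Afp and Apoa2, secreted products of hepatoblasts, stood at 1.11, 2.88 and 4.1 and at 0.86, 4.22 and 2.42, and Apoa2 was expressed in all cells of embryo 2. Hnf4a, the hepatocyte nuclear factor, was expressed in 0 of 76 cells. All 14 tested hepatoblast genes had a positive difference (median 1.0) and none was called. Liver cells alone could bring such a gene into the test, so the shared sign is a description only. Over all genes tested 7430 of 13171 were positive, with a median of 0.03. Lung cells of embryo 3, from the sample pooled with liver, had a summed hepatoblast TPM of 207, against 32.3 in lung embryo 2.

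Blood genes had a summed TPM of 17.1, 554 and 1280 in the 3 livers and of 1960 and 676 in lung, and Hba-x, an embryonic globin, stood at 0.37, 2.76 and 4.24. Among the 3 livers, blood genes were lowest in embryo 1. Endothelial genes had a summed TPM of 75.0, 489 and 150, and Pecam1 and Cdh5, which define endothelium, were each expressed in 2 of 76 cells. The part of these other transcripts in the differences between organs and between livers was not tested. None of the blood, endothelial, epithelial, neural or skeletal and smooth muscle genes was called.

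The mesenchymal and epithelial cells of the same livers were set side by side without a test, because the annotation separated them by expression. A difference of at least 1 in the same direction in all 3 embryos was found for 179 of 12553 genes higher in mesenchyme (1.43%) and for 293 lower (2.33%). Map1b (5.03, 4.29 and 4.45 in embryos 1, 2 and 3), Vim (3.36, 3.36 and 2.96) and Sparc (2.81, 3.61 and 4.87) were higher in mesenchyme. Tgfb2 (4.9, 4.34 and 2.8) and Gata4 (4.38, 2.97 and 3.44) were too, as were Myl7 (5.7, 3 and 4.77) and Tnni1 (5.19, 3.91 and 3.11). Asb4 differed least of the 4 markers, by 1.21, 2.54 and 1.22.

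On the epithelial side, 15 of 16 hepatoblast genes were higher in epithelium, with Afp at -7.44, -5.84 and -5.81 as mesenchyme minus epithelium. Epcam, an epithelial adhesion molecule, stood at -4.39, -3.54 and -2.72. Kitl, the ligand of the Kit receptor on blood progenitors, was higher in epithelium too (-1.47, -1.13 and -1.51), although within mesenchyme its liver means of 2.82, 3.14 and 1.99 lay above those of all other organs (0.5 to 1.89). That difference between organs was 1.42 ± 0.38 and was not called (adjusted p = 0.157).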

How the data were processed

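Single cells were picked by mouth pipette from dissected E9.5 organs, tagged with cell barcodes and UMIs in a modified STRT protocol that reads 3′ ends, and pooled by sample. According to the methods, the authors aligned reads to mm10 with TopHat 2.0.12, counted uniquely mapped reads per gene with HTSeq (version and annotation not given in the sources used here) and removed duplicate UMIs. CASAVA 1.8 is named in the submitters' processing notes. The values deposited by the authors are CPM in kind (they name them TPM), with no gene length, rounded at the second decimal. Reads that map equally well to near-identical genes were left out by unique mapping, so values of such genes are uncertain. Whole UMIs (within 0.05) were recovered for 99.997% of the values above 0.

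Cells were assigned to organ and embryo by their names and to classes by the study's supplementary annotation. The test took genes that 3 or more of the mesenchymal cells expressed, as embryo means over 3 or more cells of log2(TPM/10 + 1) with limma 3.58.1 in R 4.3.3 (one group per organ, moderated with trend, 2-sided, Benjamini-Hochberg adjustment over all genes tested). A difference is on that scale and understates the change of low genes. The members and gene lists were chosen with earlier results of these data known, and Myl7, Tnni1 and Asb4 had already been seen to differ, so their order is no independent evidence. Named genes are the 10 largest called in each direction against the average, the 5 largest against each organ, the listed genes, and the 5 genes most correlated with a score. Samples of the same embryo deviated together (correlation over genes 0.156 to 0.349 in 13 pairs of organs, 0.156 to 0.314 in the 7 with liver), and the pairing comes from the animal. edgeR 4.0.16 was run on summed UMIs. The test was tried on simulated data. Alternatives covered the pseudocount, filters, thinning, other cell sets and stages. Heart muscle counts use Wilson intervals. Promoters come from RefSeq (GRCm38.p6).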

Additional observations from a re-analysis of the deposited data

How the results depend on the processing

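Of the 20 genes with the largest calls against the average of the other organs, none changed direction under any of the settings tried. With no filter on low values the calls against the average, intestine, lung and skin were 30, 34, 11 and 55 in place of 62, 83, 24 and 101. With the other organs' mesenchyme of all stages in the fit they were 214, 279, 217 and 324. A pseudocount of 1 on TPM gave 146 against intestine. The embryo as a replicate block gave 101 against the average, 183 against intestine and 43 against lung, and edgeR 159 against the average and 15 against lung. Leaving out replicates gave 0 to 101 against the average, 0 to 102 against intestine, 0 to 45 against lung and 0 to 118 against skin. The 0 calls came from leaving out embryo 2 or embryo 3 with all its organs, when limma still gave 1047 and 1502 genes at an unadjusted p under 0.05 against intestine, 546 and 660 against lung and 662 and 991 against skin. Without lung embryo 3 the lung comparison had 12 calls, 2 of them higher. The cause of these changes was not tested, apart from the smaller number of samples. A lone mean left in an organ was assumed to vary like the others. Cells with at least 8 heart muscle genes numbered 16, and 30 at a limit of 6, 8 at a limit of 10 and 39 with a single UMI as expression. They numbered 3 to 16 when an embryo was left out. The number of genes that differed by 1 or more between liver mesenchyme and epithelium in every embryo rose from 472 to between 590 and 701 when an embryo was left out. Precision was limited by the number of embryos, with 2 for lung and skin, and by sets as small as 6 cells.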

Other observations

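The liver samples of E9.5 also held 13 mesoderm-derived cells that the annotation does not name mesenchymal. Myl7 was expressed in 13 of them, with a median of 6.06, Asb4 in 13 (5.54), Tnnt2 in 11 (3.95) and Gata4 in 11 (3.96). Tek, a receptor of endothelial cells, was expressed in 7 and Pecam1 in 1. At E10.5 the liver samples held 3 mesoderm-derived cells. Asb4, Gata4 and Wt1 were expressed in 3 of these 3 cells, Tnnt2 in 0 and Myl7 in 1, too few cells to give a share. Values of the cell cycle gene lists were also taken. The mean log2 level of 43 G1/S genes was 2.46, 2.72 and 2.67 in liver embryos 1, 2 and 3, and that of 54 G2/M genes 2.83, 2.61 and 2.75. In embryo 1 the cells with at least 8 heart muscle genes had a G2/M level of 2.23 and the other cells 3.32, and in embryo 2 the values were 1.6 and 2.75. Their G1/S levels were 2.72 and 2.24 in embryo 1, the reverse order, and 1.73 and 2.86 in embryo 2.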
